A study of Oryza sativa with 18 samples.

Results

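JAZ proteins are the repressors of jasmonate signalling in plants. In the textbook account, built largely on Arabidopsis, they bind transcription factors such as MYC2 and hold their target genes off. When the active hormone, a conjugate of jasmonate with isoleucine, joins a JAZ protein to the F-box receptor COI1, the JAZ protein is degraded and the targets are released. JAZ genes are themselves among those targets, so their mRNA commonly rises when the pathway is active, and the new protein restores repression. Jasmonate is known in leaves as the hormone of wounding, chewing insects and some abiotic stress.

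The 10 genes described here are rows of the deposited count table, chosen by their RAP-DB identifiers from a list of the TIFY/JAZ repressor family of rice, out of 37863 genes in the table. They were chosen with earlier results of these data known, so shares of all genes given beside their counts are for reference only. All 10 had reads and passed the filter on low counts, and each was above the filter level in at least 6 of the 9 control libraries. The reference table used here lists 13 genes under JAZ names but pairs 0 of the 10 identifiers with them. Individual JAZ numbers and roles are therefore not given to single genes, and the members are ordered below by how they responded. No sequence is printed, since no file used here holds sequences for these identifiers. Identifiers carry the chromosome number after "Os" and follow the order of genes along it. By that order Os03g0180800, Os03g0180900 and Os03g0181100 are consecutive rows on chromosome 3, and Os10g0391400 and Os10g0392400 are separated by 2 rows on chromosome 10.

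The libraries came from rice leaf in 6 groups of 3, described in the series design as biological replicates. Wild type was the cultivar Ningjing 4, and the other genotypes were an FKBP57 knockout line and an FKBP73 knockout line, each kept in normal nutrient solution or given 150 mM NaCl for 4 hours. FKBP57 and FKBP73 are FK506-binding proteins, a family of prolyl isomerases. The labels give neither the age of the plants, nor the harvest time of the controls, nor how many independent lines stand behind each knockout, nor whether a replicate was 1 plant or a pool. Time of harvest and salt therefore cannot be told apart, and a knockout effect cannot be told apart from a feature of the line. The knockouts were not checked at the FKBP57 and FKBP73 genes, which no table used here pairs with an identifier.

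Library totals ran from 27601098 to 39894394 counts. Replicates of 4 groups correlated at 0.943 or higher on the log2 scale, while wild-type controls went down to 0.907 and FKBP57 knockout controls to 0.844. A set of 3 libraries (replicate 3 of the wild-type controls and replicate 3 of both FKBP57 knockout groups) had been picked by eye as standing apart in an earlier analysis of these data, so member counts are also given without them. The 6 photosynthesis genes listed as leaf markers had reads in every library, summing to between 5704 and 53883 CPM (the share of a library's counts, scaled to a common total). Their lowest control sum was 8058 CPM, in FKBP57 knockout control 2. Their group medians were 30367 CPM in wild-type controls and 10724 CPM under salt, 36109 and 15516 CPM in the FKBP57 knockout, and 18373 and 9183 CPM in the FKBP73 knockout. The part of this shift in the results below was not tested. Averaged over genotypes 3 of these 6 genes fell under salt, where 22.5% of all genes were called lower, and 0 of 6 were called in any single genotype. Of the 2 root marker genes, Os02g0662000 was at 0 in 8 libraries and at most at 28 counts, and both together were at 3.93 to 18.9 CPM. Both root genes fell under salt in the average over genotypes.

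**Figure D1:**
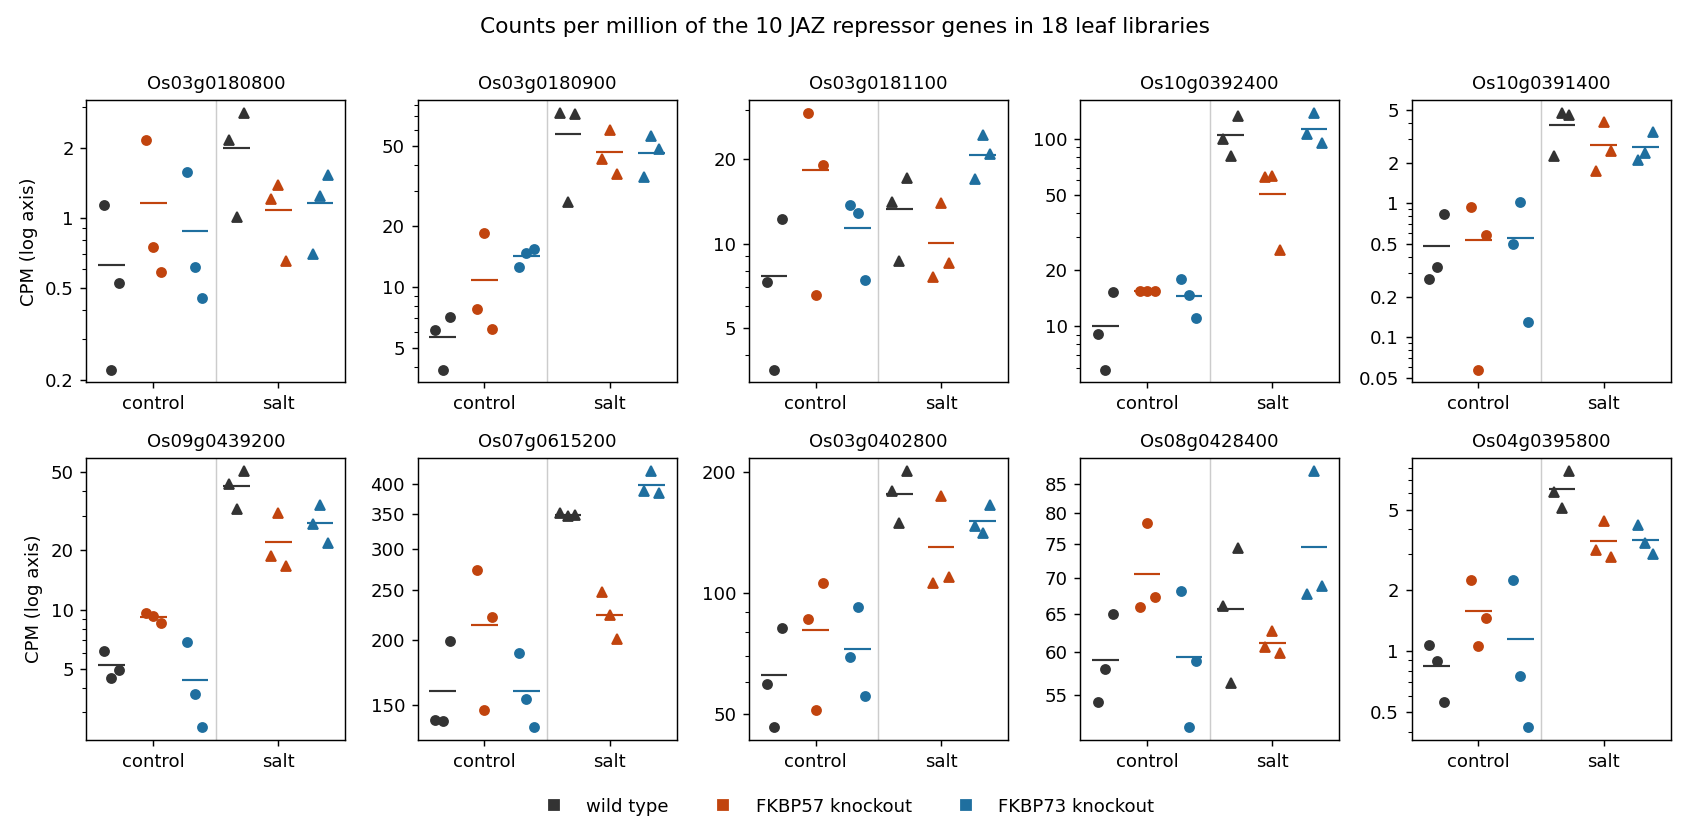
CPM of each of the 10 JAZ repressor genes (log axis, 1 panel a gene) in every library, with circles for control, triangles for salt, colours for the genotype and a line at the mean of each group of 3. In Os10g0392400 and Os09g0439200 all 9 salt libraries lie above all 9 controls, and in Os07g0615200 the FKBP57 knockout salt libraries lie at 200.8 to 248.1 CPM, within the range of that line's controls.

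Most JAZ repressor genes had more mRNA in salt-treated leaves. Averaged over the 3 genotypes, 7 of the 10 members rose and 0 fell by edgeR's quasi-likelihood test at a Benjamini-Hochberg adjusted p under 0.05 over all 25957 genes tested, where 20.3% of all genes were called higher and 22.5% lower. The median log2 fold change was 1.48 for the members and -0.07 for all genes tested. In 6 of the 10 members all 9 salt libraries were above all 9 control libraries, against 5.46% of all genes. In bulk leaf, fewer cells of a type and less RNA per cell cannot be told apart. A single time was sampled.

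Os10g0392400 gave the steepest averaged response among the members. In wild type it was at 9.03, 5.86 and 15.3 CPM in the controls and at 99.7, 81.4 and 132.8 CPM under salt. The FKBP57 knockout was at 15.3, 15.4 and 15.3 CPM in the controls and at 62.7, 63.1 and 25.6 CPM under salt. The FKBP73 knockout had control values of 17.8, 14.6 and 11 CPM, and salt values of 106.7, 137.1 and 95.3 CPM. Every salt library was above every control library, and FKBP57 knockout salt 3 was the lowest of the salt libraries. The averaged log2 fold change was 2.69 (SE 0.21, edgeR adjusted p = 3e-07), a 6.45-fold rise. By genotype it was 3.38 (SE 0.38, edgeR adjusted p = 4.9e-05) in wild type, 1.72 (SE 0.36, 0.0096) in the FKBP57 knockout and 2.97 (SE 0.37, 0.00016) in the FKBP73 knockout. The order of group means under salt was FKBP73 knockout, wild type, FKBP57 knockout, where the first pair overlapped and the FKBP57 knockout lay below both.

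Os09g0439200 moved the same way from a lower control level. Wild-type controls were at 6.17, 4.5 and 4.95 CPM and wild-type salt libraries at 43.6, 32.7 and 50.9 CPM. The FKBP57 knockout went from 9.62, 9.3 and 8.57 CPM to 18.8, 31.0 and 16.6 CPM. The FKBP73 knockout went from 6.85, 3.72 and 2.52 CPM to 27.3, 33.9 and 21.7 CPM. All 3 FKBP57 knockout controls were above all 3 wild-type controls, while all 3 of its salt libraries were below the wild-type salt libraries. The log2 fold change for salt was 3.02 (SE 0.34, edgeR adjusted p = 5.1e-05) in wild type, 1.27 (SE 0.32, 0.028) in the FKBP57 knockout and 2.66 (SE 0.34, 0.00018) in the FKBP73 knockout.

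Os03g0180900, the middle gene of the chromosome 3 run, was called in all 3 genotypes as well. It was at 6.08, 3.89 and 7.05 CPM in wild-type controls and at 72.6, 26.4 and 72.0 CPM under salt. Controls of the FKBP57 knockout were at 7.77, 18.4 and 6.15 CPM and the salt libraries at 42.9, 59.8 and 36.3 CPM. In the FKBP73 knockout the values were 12.6, 14.7 and 15.4 CPM in the controls and 35.1, 55.9 and 47.9 CPM under salt. Wild type spanned the widest range, with the lowest control library of the 18 and also the highest salt library, while wild type salt 2 was below all other salt libraries. Its log2 fold changes were 3.33 (SE 0.45, edgeR adjusted p = 0.00019) in wild type, 2.10 (SE 0.43, 0.0083) in the FKBP57 knockout and 1.71 (SE 0.42, 0.014) in the FKBP73 knockout. The FKBP57 knockout value rested partly on control 2, the library with the highest control level, and was 2.76 without it.

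Os10g0391400 and Os04g0395800 had few reads, as did Os03g0180800, described further on. Os10g0391400 had 2 to 30 counts in control libraries and 60 to 171 under salt, or 0.48 ± 0.30 CPM (SD, n = 3) in wild-type controls against 3.83 ± 1.37 under salt. Os04g0395800 had 13 to 73 counts in controls and 95 to 292 under salt, or 0.84 ± 0.26 CPM against 6.32 ± 1.35 in wild type. All salt libraries of both genes were above all control libraries. Averaged over genotypes they rose by 2.56 (SE 0.44, edgeR adjusted p = 0.00035) and 1.89 (SE 0.28, 9.6e-05) on the log2 scale.

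Os03g0402800 and Os07g0615200 had many reads and smaller fold changes. Os03g0402800 was at 59.6, 46.4 and 81.8 CPM in wild-type controls and at 180.0, 149.5 and 201.9 CPM under salt. Its averaged log2 fold change was 1.08 (SE 0.16, edgeR adjusted p = 0.00012). Os07g0615200 was at 140.2, 140.1 and 199.7 CPM in wild-type controls and at 351.5, 347.3 and 347.9 CPM under salt. In the FKBP73 knockout it was at 189.2, 154.4 and 136.1 CPM and then at 387.1, 423.7 and 384.3 CPM. For the FKBP57 knockout the values were 272.6, 146.8 and 222.0 CPM in the controls and 248.1, 223.4 and 200.8 CPM under salt. The FKBP57 knockout was the only one of the 3 genotypes in which the control and salt libraries of Os07g0615200 overlapped. The log2 fold change was 1.12 (SE 0.21, edgeR adjusted p = 0.0019) in wild type, 1.32 (SE 0.21, 0.00087) in the FKBP73 knockout and 0.07 (SE 0.21, 0.88) in the FKBP57 knockout.

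The other 3 members were not called for salt in any genotype or in their average. Os08g0428400 stayed between 51.4 and 87.3 CPM in all 18 libraries, and averaged 0.09 on the log2 scale for salt over control (SE 0.09, edgeR adjusted p = 0.41). Os03g0181100 had 7.69 ± 4.35 CPM (SD, n = 3) in wild-type controls and 13.3 ± 4.3 under salt, and 11.3 ± 3.41 and 20.7 ± 3.71 in the FKBP73 knockout. The FKBP57 knockout had 18.3 ± 11.3 CPM in the controls and 10.04 ± 3.45 under salt. Its averaged log2 fold change was 0.27 (SE 0.28, edgeR adjusted p = 0.47). In the FKBP73 knockout its salt libraries lay wholly above the controls (all genes 24.1%), at 0.87 on the log2 scale (SE 0.49, edgeR adjusted p = 0.26). An edgeR fit of only the groups compared called it there (0.86, adjusted p = 0.037), with 7150 of 24478 genes called. Os03g0180800 had only 8 to 106 counts a library. Its log2 fold change in wild type was 1.65 (SE 0.67, edgeR adjusted p = 0.081), and DESeq2 called it there (adjusted p = 0.048), as did edgeR without wild type control 1 (2.43, adjusted p = 0.043).

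Among the 3 consecutive genes on chromosome 3, Os03g0180900 was called for salt in the main fit and its neighbours were not. A difference between the genes was not tested. The ratio of counts between genes in 1 library depends on gene length, but its change between libraries does not. On the log2 scale, the ratio of Os03g0180900 to Os03g0181100 ran from -0.79 to 0.13 in wild-type controls and from 1.60 to 2.37 under salt. The FKBP57 knockout ran from -1.91 to 1.49 and then from 2.10 to 2.49. In the FKBP73 knockout it ran from -0.13 to 1.05 and then from 1.05 to 1.199. Control and salt ranges did not overlap in wild type or the FKBP57 knockout, and in the FKBP73 knockout the highest control library and the lowest salt library met. The ratio of Os03g0180900 to Os03g0180800 ran from 1.85 to 5.08 in the 9 controls and from 4.67 to 5.80 under salt, and these ranges overlapped. They overlapped within the FKBP73 knockout too, at 3.00 to 5.08 and 4.98 to 5.65. Within wild type they did not, at 2.42 to 4.13 in controls and 4.67 to 5.07 under salt. Nor did they within the FKBP57 knockout, at 1.85 to 4.63 and 5.15 to 5.80. On chromosome 10 the ratio of Os10g0392400 to Os10g0391400 had a median of 4.72 (3.83 to 8.06) in controls and 4.87 (3.39 to 5.84) under salt, and the ranges overlapped. Reads of near-identical copies may have been split or dropped by the counting, so single members of a run are uncertain to that extent.

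**Figure D2:**
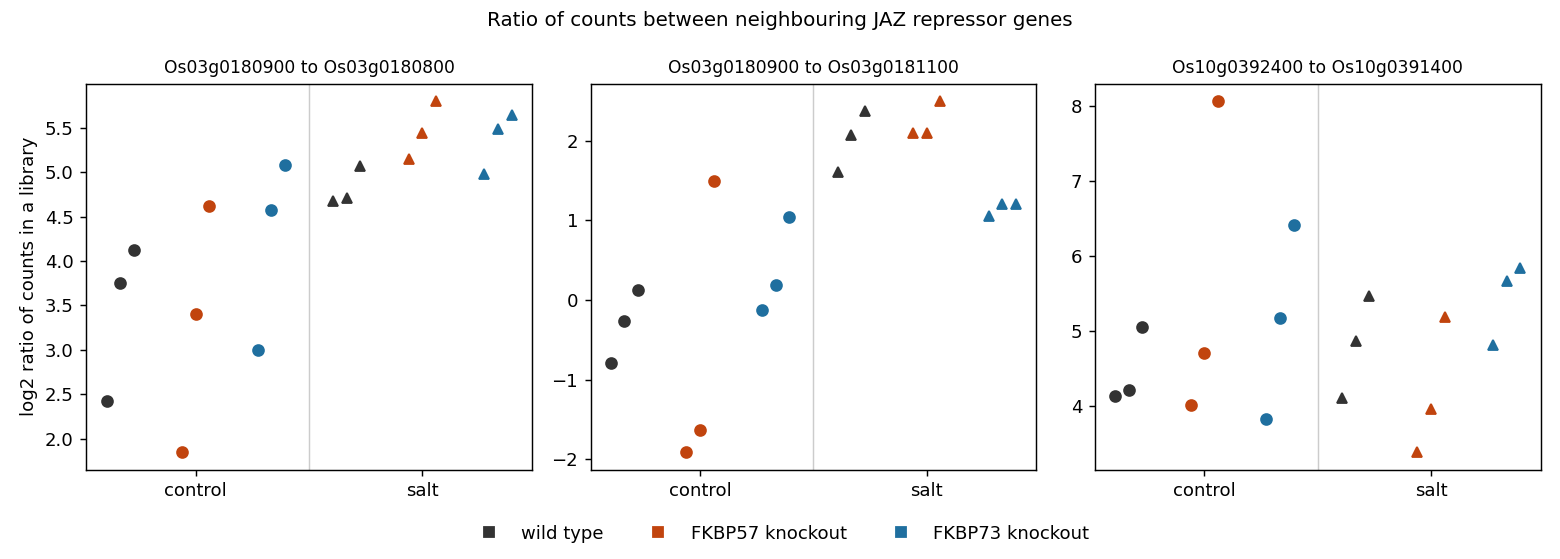
Log2 ratio of counts between neighbouring JAZ repressor genes within each library, with circles for control, triangles for salt and colours for the genotype, sorted by value within a group. The ratio of Os03g0180900 to Os03g0181100 has a median of -0.13 in the 9 controls and 2.07 in the 9 salt libraries. That of Os03g0180900 to Os03g0180800 has medians of 3.75 and 5.15, and that of Os10g0392400 to Os10g0391400 has medians of 4.72 and 4.87. Over the 9 controls and 9 salt libraries the ranges of each ratio overlap.

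By genotype, wild-type leaves had the largest number of members called. In wild type 7 of 10 rose and 0 fell, where 13.6% of all genes were called higher and 10.9% lower, and the median log2 fold change of the members was 2.28 (all genes -0.06). In 7 members the wild-type salt and control libraries did not overlap, against 21.3% of all genes. The called members were Os10g0392400, Os03g0180900, Os10g0391400, Os09g0439200, Os04g0395800, Os03g0402800 and Os07g0615200. Os10g0391400 was 3.03 higher on the log2 scale (SE 0.78, edgeR adjusted p = 0.012). It lost its call without wild type control 1 (adjusted p = 0.051) or control 2 (0.056), and without control 3 its value was 3.62. The other 6 calls held without any single wild-type library.

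In the FKBP73 knockout 6 of 10 members rose and 0 fell, where 8.88% of all genes were called higher and 5.46% lower. The median log2 fold change was 1.47 (all genes -0.03), and in 8 members the groups did not overlap, against 24.1% of all genes. The 7 members called in wild type were called here too, except Os10g0391400, with 2.25 (SE 0.76, edgeR adjusted p = 0.059). DESeq2 called Os10g0391400 (adjusted p = 0.013), as did edgeR in a fit of only these 6 libraries (0.028), without the 3 libraries that stand apart (0.046) and without FKBP73 knockout control 2, where its value was 3.05 (0.042). Os04g0395800 rose by 1.62 (SE 0.48, edgeR adjusted p = 0.035) and Os03g0402800 by 1.06 (SE 0.29, 0.022) on the log2 scale. These calls were the least firm. Os04g0395800 kept its call only without control 1, where its value was 2.58, and it had adjusted p = 0.12, 0.12, 0.12, 0.084 and 0.052 without control 2, control 3, salt 1, salt 2 and salt 3. Os03g0402800 kept its call only without control 2, and had adjusted p = 0.077, 0.098, 0.059, 0.051 and 0.052 without control 1, control 3, salt 1, salt 2 and salt 3. Os03g0180900 lost its call without control 1 (adjusted p = 0.06) or salt 2 (0.057). Without FKBP73 knockout salt 2 the count was 3 members.

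In the FKBP57 knockout 3 of 10 members rose, namely Os03g0180900, Os10g0392400 and Os09g0439200, and 0 fell, where 4.64% of all genes were called higher and 1.68% lower. The median log2 fold change was 0.91 (all genes -0.10), and 3 members had values below 0 (all genes 58%). In 6 members the salt libraries lay wholly above the controls, against 11.2% of all genes, and in Os08g0428400 they lay wholly below (all genes 6.79%). The last gene was at 65.9, 78.4 and 67.3 CPM in the controls and 60.6, 62.8 and 60.0 CPM under salt, or -0.21 on the log2 scale (SE 0.15, edgeR adjusted p = 0.44). In a fit of only these 6 libraries 0 members were called by edgeR, with adjusted p from 0.10 to 0.12 for the 3 genes called above. That fit called 141 of 24333 genes, against 1641 of 25957 in the main fit. Os09g0439200 lost its call without control 1 (adjusted p = 0.078), control 3 (0.06), salt 1 (0.057) or salt 2 (0.15). Without the 3 libraries that stand apart the counts were 7 in wild type, 4 in the FKBP57 knockout and 7 in the FKBP73 knockout. Of all 26281 genes tested there, 9392, 4695 and 5615 were called in the same order. The main fit called 6364, 1641 and 3722 of 25957.

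**Figure D3:**
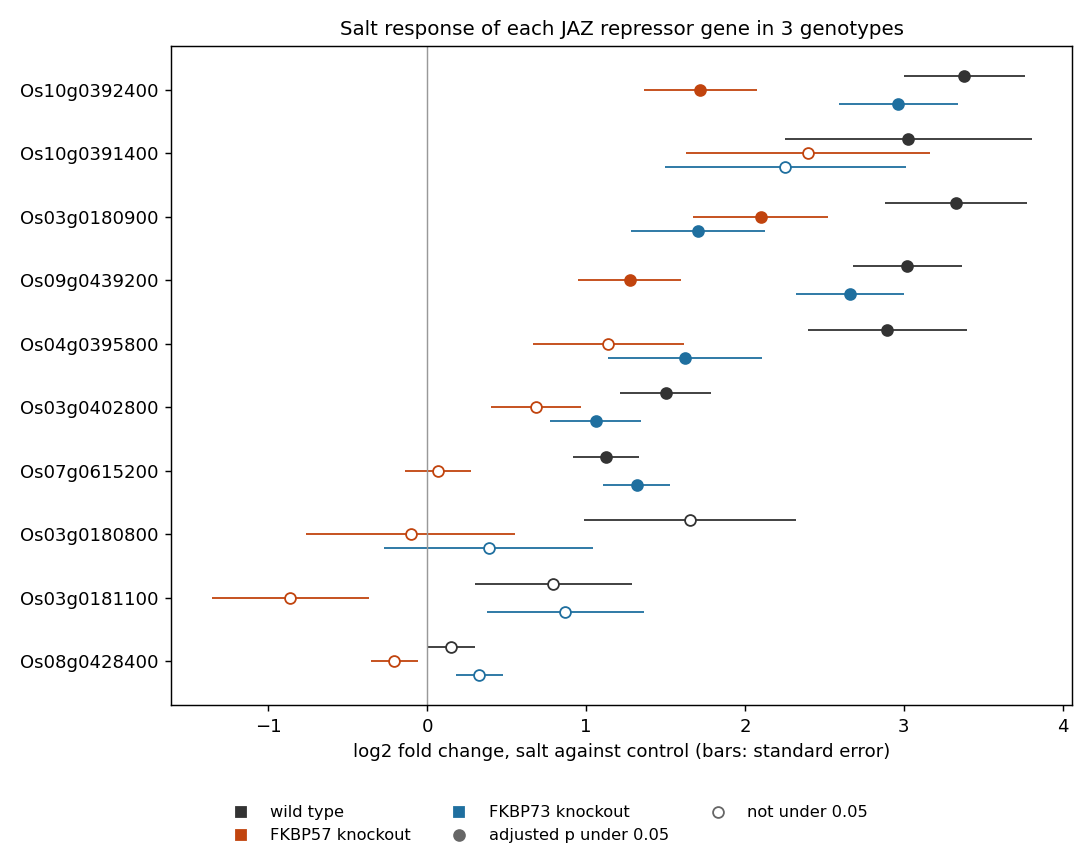
Log2 fold change of salt against control for each JAZ repressor gene in 3 genotypes, with bars for the standard error. Filled points have an edgeR adjusted p under 0.05, which holds for 7 genes in wild type, 3 in the FKBP57 knockout and 6 in the FKBP73 knockout.

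Whether the salt response differed between genotypes was tested as the difference of log2 fold changes, knockout minus wild type. For the FKBP57 knockout the difference was below 0 in all 10 members, where 53.5% of all genes were below 0. It ran from -1.76 to -0.36, with a median of -1.44 (all genes -0.05). No member was called. edgeR and DESeq2 each called 0 of the 10. Over all genes edgeR called 0% and DESeq2 called 26 of 25957. The lowest adjusted p of any member under any alternative was 0.1. At an unadjusted p under 0.05 there were 5 members, all lower, against 3.57% of all genes. The lowest p belonged to Os09g0439200, with -1.75 (SE 0.45, 95% interval -2.74 to -0.76, edgeR unadjusted p = 0.0016 and adjusted p = 0.77). Os07g0615200 had -1.06 (SE 0.29, interval -1.70 to -0.41, edgeR adjusted p = 0.77) and Os10g0392400 had -1.66 (SE 0.50, interval -2.74 to -0.58, 0.77). These intervals are per gene, without correction for the number of genes. Leaving out any 1 of the 12 libraries kept at least 9 of the 10 members below 0, with medians from -1.69 to -1.03. The exception was Os10g0391400, at 0.16 without FKBP57 knockout control 1. Without the 3 libraries that stand apart all 10 were below 0, with a median of -1.50.

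Each condition was also compared alone, and no member was called in either. Among controls all 10 members had a log2 fold change above 0 for the FKBP57 knockout over wild type, where 59% of all genes did. They ran from 0.14 to 1.25, with a median of 0.71 (all genes 0.06). edgeR called 0 of 10 (all genes 0.204%), and DESeq2 called 0 of 10 (107 of all 25957 genes). By edgeR 3 members had an unadjusted p under 0.05, all higher (all genes 1.88%). These were Os03g0181100, Os09g0439200 and Os03g0180900, with 1.25 (SE 0.50), 0.81 (SE 0.32) and 0.93 (SE 0.42), each at edgeR adjusted p = 1. The value of Os03g0180900 was 0.26 without FKBP57 knockout control 2. In 3 members the knockout controls lay wholly above the wild-type controls (all genes 2.39%). For Os10g0392400 that gap was within rounding, since wild type control 3 was at 15.3 CPM like the knockout libraries. Os10g0391400 was at -0.01 where libraries were scaled by size alone, at -0.65 without FKBP57 knockout control 1, at -0.16 without wild type control 1 and at -0.05 without wild type control 2, while the other 9 stayed above 0 in each of those fits.

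Under salt the same 10 members were all below 0 in the FKBP57 knockout against wild type, where 47.9% of all genes were. They ran from -1.05 to -0.10, with a median of -0.56 (all genes 0.02). edgeR called 0 of 10 (all genes 0.304%), and DESeq2 called 0 of 10 (370 of all 25957 genes). By edgeR 3 members had an unadjusted p under 0.05, all lower (all genes 4.59%). Os10g0392400 had 50.5 ± 21.5 CPM (SD, n = 3) in the knockout against 104.6 ± 26.1 in wild type, or -1.05 on the log2 scale (SE 0.35, edgeR adjusted p = 0.35). Os09g0439200 had 22.2 ± 7.78 CPM against 42.4 ± 9.16, or -0.94 (SE 0.32, edgeR adjusted p = 0.35). Os07g0615200 had 224.1 ± 23.6 CPM against 348.9 ± 2.30, or -0.64 (SE 0.21, edgeR adjusted p = 0.34). In these 3 and in Os04g0395800 the knockout libraries lay wholly below wild type, 4 of 10 members against 11.6% of all genes. All 10 stayed below 0 without any 1 of the 6 libraries. The control and salt comparisons have no library in common, while the difference of salt responses uses both.

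**Figure D4:**
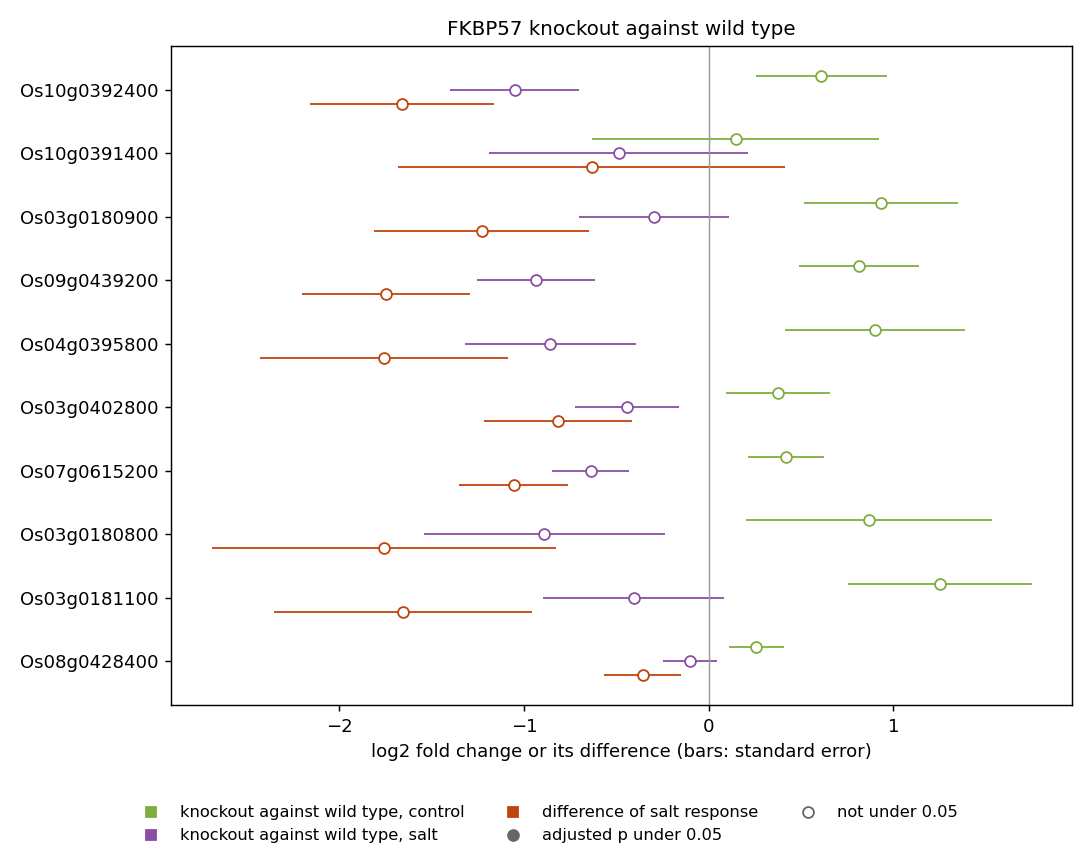
Log2 fold change of the FKBP57 knockout over wild type, in control and in salt-treated leaves, and the difference of the salt responses, for each JAZ repressor gene, with bars for the standard error. All control values are above 0, all salt values and differences below 0, and no point has an edgeR adjusted p under 0.05.

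For the FKBP73 knockout the same comparisons gave mixed signs, and a difference between the knockouts was not tested. Among controls 8 of 10 members were above 0 against wild type (all genes 46%), with a median of 0.33. That tally depended on single libraries, since it was 10 of 10 (median 0.69) without FKBP73 knockout control 3 and 5 of 10 without control 1. The difference of its salt response from wild type was below 0 in 7 members and above 0 in 3, where 50.5% of all genes were below 0, with a median of -0.43. edgeR called 0 members and 0 of all genes (0%), and DESeq2 called 0 members and 4 of all 25957 genes. By edgeR 1 member had an unadjusted p under 0.05 (lower, all genes 1.15%). That gene was Os03g0180900, with -1.62 (SE 0.58, 95% interval -2.90 to -0.35, edgeR adjusted p = 0.99). Its control level was 14.2 ± 1.45 CPM (SD, n = 3) in the knockout and 5.67 ± 1.62 in wild type, without overlap (all genes 2.66%), and its salt level 46.3 ± 10.5 against 57.0 ± 26.5 CPM. For the control levels the log2 fold change was 1.33 (SE 0.42, edgeR unadjusted p = 0.0065 and adjusted p = 1). For Os07g0615200 the difference of responses was 0.19 (SE 0.29, interval -0.45 to 0.83). Against wild type the FKBP73 knockout had 0 members called by edgeR under control (all genes 0%) and 0 under salt (all genes 0%). DESeq2 called 0 members in both, with 24 of all 25957 genes called under control and 62 under salt. The members' values ran from -0.25 to 1.33 under control and from -0.84 to 0.64 under salt, where 1 (higher, all genes 1.5%) and 0 of them had an unadjusted p under 0.05. Under salt 6 members were below 0 (all genes 52.8%) and 4 above, with a median of -0.26. In 1 member, Os04g0395800, the knockout lay wholly below wild type (all genes 9.94%), and in 1, Os07g0615200, wholly above (all genes 13.1%). Os04g0395800 had -0.84 here and -0.86 in the FKBP57 knockout. Both knockouts were compared with the same wild-type libraries.

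In most groups replicates differed in the same sense across many members. In the FKBP57 knockout salt group, replicate 2 was the highest library for 9 of 10 members and replicate 3 the lowest for 7. In the wild-type salt group replicate 2 was the lowest for 9 members and replicate 3 the highest for 7. In wild-type controls replicate 3 was the highest for 7 members and replicate 2 the lowest for 7, and in FKBP73 knockout controls replicate 1 was the highest for 7 and replicate 3 the lowest for 8. The FKBP57 knockout controls were less uniform, with replicate 1 the highest for 6 members and replicate 2 the highest for 3. So was the FKBP73 knockout salt group, with replicate 2 the highest for 6 members and replicate 3 for 3. There replicate 1 was the lowest for 5 members and replicate 3 for 4. The members are therefore not independent witnesses of a group difference, since a library that was high for one was often high for others. The spread between replicates, as edgeR's biological coefficient of variation, ran from 15.3% for Os08g0428400 to 58.6% for Os10g0391400.

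Of 16 other jasmonate genes, listed by identifier from prior knowledge, 14 were tested. The list was made with earlier results of these data known. No table used here pairs their identifiers with names, so a wrong membership is possible. Averaged over genotypes 6 rose, 1 fell and 7 were not called (all genes 20.3% higher and 22.5% lower), with a median log2 fold change of 0.37. Of the 2 tested transcription factors 1 was called, Os11g0684000, which rose by 2.24 (SE 0.21, edgeR adjusted p = 1.7e-06), while the other had 0.25. The listed breakdown gene Os12g0150200 rose by 1.54 (SE 0.35, edgeR adjusted p = 0.0026). By genotype the breakdown gene had 2.43 in wild type, 2.24 in the FKBP57 knockout and -0.05 in the FKBP73 knockout. The listed conjugation gene Os05g0586200 fell, with -0.71 (SE 0.14, edgeR adjusted p = 0.00092). Of the tested synthesis genes 2 of 5 rose, of the reception genes 1 of 3, and of the family members outside the 10 described here 1 of 2. By genotype 6 of the 14 rose and 0 fell in wild type, where 13.6% of all genes were called higher and 10.9% lower. For the FKBP57 knockout 2 rose and 1 fell (all genes 4.64% and 1.68%), and for the FKBP73 knockout 4 rose and 1 fell (all genes 8.88% and 5.46%).

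Against wild type, 1 of these 14 was called in a knockout, chosen for mention after its values were seen. The call was in the FKBP57 knockout under salt, where 0.304% of all genes were called, against 0% in the FKBP73 knockout under salt. Its adjusted p was close to the threshold, and the alternative fits were not examined for this gene. Os12g0559200, listed under synthesis, was at 224.2 ± 22.1 CPM (SD, n = 3) in wild-type salt leaves and at 57.9 ± 2.66 CPM in the FKBP57 knockout under salt, or -1.95 on the log2 scale (SE 0.39, edgeR adjusted p = 0.048). In the FKBP73 knockout under salt it was at 50.3 ± 11.6 CPM, or -2.16 (SE 0.39, edgeR adjusted p = 0.16). Its control levels were 62.8 ± 21.6, 67.1 ± 36.8 and 61.1 ± 18.4 CPM in wild type and in the lines lacking FKBP57 and FKBP73. Both knockout comparisons share the wild-type salt libraries.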

How the data were processed

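The deposited table holds whole-number read counts per gene for 18 rice leaf libraries. Per the submitters' processing notes the authors used fastp 0.22.0, HTSeq 0.9.1 and the build IRGSP-1.0. No source used here names the aligner, annotation release or strand setting, and reads of overlapping or antisense genes may not have been told apart.

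Counts were tested in edgeR 4.0.16 (R 4.3.3), after filterByExpr (minimum count 10, minimum total 15; 25957 genes kept), with TMM scaling and 1 quasi-likelihood fit of 6 group means (12 residual degrees of freedom). Adjustment was by Benjamini-Hochberg over all tested genes, at 0.05. CPM uses TMM-scaled totals. Standard errors come from the F statistics, and 95% intervals from them with 12 degrees of freedom. Library-size scaling shifted the all-gene median of FKBP57 knockout comparisons by 0.12 (salt), -0.11 (knockout over wild type, controls) and 0.15 (difference of salt responses). The code was tested on simulated data. DESeq2 1.42.0 and the other alternatives are described in the closing section. All 10 members are named by rule. Of the other jasmonate genes, at most 2 higher and 2 lower were to be printed, with 1 addition. Members and lists were chosen with earlier results of these data known.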

Additional observations from a re-analysis of the deposited data

Results flagged for a closer look

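Os10g0392400 and Os09g0439200 were picked out because every FKBP57 knockout library was above every wild-type library under control and below every wild-type library under salt. The difference of salt responses was -1.66 for Os10g0392400 (SE 0.50, edgeR adjusted p = 0.77) and -1.75 for Os09g0439200 (SE 0.45, edgeR adjusted p = 0.77), so neither passed the test of the difference. For Os10g0392400 the separation under control rests on wild type control 3 and the knockout libraries all rounding to 15.3 or 15.4 CPM.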

How the results depend on the processing

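The count of members called kept within 1.5 times its value in all comparisons under DESeq2, RLE scaling, no filter, a mean of at least 5 CPM, the replicate block and without the 3 libraries that stand apart. For salt in the FKBP57 knockout it was 3. A fit of only the groups compared gave 0 members, with 141 of 24333 genes called. Library size alone, a scaling added after seeing the data, gave 5, with 2082 of 25957 genes called. Leaving out 1 library gave 6 to 7 members in wild type, 2 to 3 in the FKBP57 knockout, 3 to 6 in the FKBP73 knockout, 7 to 7 averaged over genotypes and 0 elsewhere. Of the alternative values of single members 1576 kept their side of the threshold, 22 lost a call and 12 gained one, and no called value changed sign. The cause was not tested. At 5 CPM only 7 members were tested. Same-numbered libraries were not treated as pairs in the main fit. Of 45 correlations of their deviations 14 were above 0.1, and they ran from -0.66 to 0.73. With 3 libraries a group these values cannot decide whether libraries of the same number were paired. With the replicate block the counts were 7 in wild type, 3 in the FKBP57 knockout and 6 in the FKBP73 knockout, as without it. Low counts in controls, of at most 73 a library, limit Os03g0180800, Os10g0391400 and Os04g0395800.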
